A study of Rattus norvegicus with 4 samples.

Results

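Chaperones fold and refold proteins, and redox enzymes keep thiols, peroxides and iron in check. The loci described here are those whose gene name, in the deposited tables of long noncoding RNA (lncRNA) transcripts, begins with 1 of 18 prefixes that mark these families, such as Hsp, Dnaj, Cct, Fkbp, Gst, Prdx, Txn, Ftl, Atf and Xbp. Rows were summed per gene name and chromosome, which gave 59 loci from 79 rows, out of 17290 loci from 20524 rows in all. Of the prefixes, 5 (Pdia, Sod, Fth, Hmox and Nqo) had no row in the tables analysed here. Of the 59 names, 56 are current symbols of the RefSeq gene table and 3 are former names, and all 59 belong to protein-coding genes. Each locus thus holds 1 to 4 listed noncoding transcripts at a coding gene (more than 1 at 16 loci), so that messenger RNA reads may be among its counts.

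The cells were astrocytes from the cerebral cortex of Wistar rats less than 24 h old. Per the labels, coverslips of astrocytes were kept about 6 to 8 days above neurons, in a shared medium and without contact, and a normoxic incubation of the co-cultures for 48 h is also stated. The control group is labelled untreated. In the other group the co-cultures were held without glucose at 1% oxygen for 45 min (oxygen and glucose deprivation, OGD). The gas also held 94% nitrogen and 5% carbon dioxide. These co-cultures were then kept 24 h in normal medium and normoxia, as a preconditioning model. A serum content of 10% is given for both groups. Each group holds 2 libraries. The tables hold 2513804 to 2646300 counts per library. Nothing in the labels states that replicates are separate cultures, and the p-values then reflect library-to-library spread alone, possibly technical. Of 10 astrocyte marker names, 5 had a locus, and Gfap, the astrocyte intermediate filament gene, had 100 and 61 control counts, and 139 and 51 after OGD. Its log2 fold change was 0.28, beside -0.11 for Slc1a3 (a glutamate transporter) and -0.21 for Aldoc (an aldolase), the other tested astrocyte names. Of 54 marker names in 7 cell type lists, 18 had a locus and 12 were tested. By the test described below, 0 of the 12 passed, and 2, singled out after their values were seen, had an unadjusted p under 0.05 (2.33% of all tested loci). These were Syn1, a neuron name (2 and 1 control counts, 98 and 45 after OGD), and Abcc9, a mural cell name (6 and 17, then 85 and 54). Gria2, the other tested neuron name, had 223 and 275 control counts, and 187 and 222 after OGD (log2 fold change -0.23). The summed level of the 3 neuron loci was 82.3 and 110 CPM in control and 108 and 112 CPM after OGD, and that of the 2 endothelial and mural loci 3.64 and 7.57, then 32.0 and 25.02 CPM. The 2 tested microglia and macrophage loci had a median log2 fold change of -0.48 and the 2 of the oligodendrocyte lineage one of -0.53. The 2 fibroblast and meningeal loci, both tested, had a summed level of 160 and 344 CPM in control, and 184 and 325 CPM after OGD. In each library this was the highest summed level of the marker lists. These sums are not scaled by transcript length and depend on which names had a locus, so they do not rank cell types. The median log2 fold change of these 2 loci was 0.10. Col1a1 had 313 and 693 control counts, and 329 and 593 after OGD, and Col3a1 had 127 and 170, then 159 and 187. At both, the replicate 2 libraries were higher than the replicate 1 libraries. No ependymal name had a locus. The part of these markers in the results was not tested.

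As background, 3 stress programmes govern many of these genes. Heat shock factors bind inverted GAA units before chaperone genes when unfolded protein accumulates in the cytosol. The unfolded protein response of the endoplasmic reticulum (ER) works through ATF4, ATF6 and spliced XBP1, and NRF2 binds antioxidant response elements before glutathione, thioredoxin and ferritin genes. In astrocytes, NRF2 and glutathione supply are known for protecting neighbouring neurons from oxidative injury.

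The DNA letters that these programmes read can be seen in RefSeq's promoter windows (assembly GRCr8), which run from 250 bases before to 50 bases after a start site. The table holds 51 windows for 48 of the 59 genes, and none for Ftl1. The windows below are shown because they carry a match to an element of each programme. They are printed 5′ to 3′ on the gene's strand, with the match in capitals. In Txnrd1 the capitals are the reverse complement of the antioxidant element, and in Cct4 they are that of the triple heat shock element. In Hspd1 the capitals cover a pair of overlapping matches, 1 on each strand, and in Hspb1 they mark 2 separate matches.
Hspd1 (chr9:64084242-64084287, minus strand): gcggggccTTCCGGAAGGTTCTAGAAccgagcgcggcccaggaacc
Cct4 (chr14:101193062-101193106, plus strand): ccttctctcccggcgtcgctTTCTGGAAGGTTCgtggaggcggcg
Hspb1 (chr12:26432383-26432450, minus strand): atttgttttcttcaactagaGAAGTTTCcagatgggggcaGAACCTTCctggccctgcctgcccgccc
Xbp1 (chr14:84604538-84604596, plus strand): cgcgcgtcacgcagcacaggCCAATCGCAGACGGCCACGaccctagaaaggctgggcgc
Txnrd1 (chr7:22755954-22756002, minus strand): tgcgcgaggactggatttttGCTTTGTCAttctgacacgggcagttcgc

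All motifs were searched on both strands. The triple heat shock element, which is the core GAANNTTC with a further GAA after 2 bases, was found in the windows of Hspd1 (242 to 225 bases upstream) and Cct4 (25 to 37 bases downstream of the start), 2 of 51 windows (3.92%) against 0.798% of all 33469 windows. The core alone was in 6 windows, those of Cct4, Dnajb6, Fkbp14, Hspb1, Hspb8 and Hspd1 (11.8%, against 8.59% of all). The antioxidant element TGACNNNGC was in 8 member windows (15.7%, against 12.1%), among them Txnrd1 and Prdx5. The ER stress element, CCAAT and CCACG with 9 bases between them, was in the Xbp1 window, 65 to 47 bases upstream, 1 of 51 windows (1.96%), against 0.0657% of all. The cyclic AMP element TGACGTCA was in 3 (5.88%, against 1.83%), those of Cct4, Hsp90ab1 and Txnl1. A match is a description of the letters and does not show that a factor binds there. The windows lie at RefSeq start sites, and whether the counted rows start there was not tested.

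After OGD and 24 h of recovery, 0 of the 41 loci with enough counts to be tested passed the threshold, an adjusted p of 0.05 over all 9581 tested loci in edgeR's quasi-likelihood test. Over all tested loci 0.0835% passed, 0.0417% higher and 0.0417% lower after OGD. At an unadjusted p under 0.05 the count of these loci was also 0, where 2.33% of all tested loci were, and DESeq2 also gave 0 adjusted (0.397% of all) and 0 unadjusted (1.39% of all). With the replicate number as a block in edgeR, 0 passed (0.219% of all), and 2, Ftl1 and Atf5, had an unadjusted p under 0.05 (4.60% of all). Tested row by row without summing, 0 of 44 rows passed in edgeR (0.00918% of all rows tested) and 0 had an unadjusted p under 0.05 (2.68% of all). The closest to a difference was Ftl1, the ferritin light chain gene, at an unadjusted p of 0.0692. Across the 41, the log2 fold change had a median of 0.15 and quartiles of -0.04 and 0.28, beside -0.0018 and quartiles of -0.21 and 0.22 over all tested loci. Without control replicate 1 the median was 0.0052, below the 0.03 of all loci tested in that fit, and without OGD replicate 1 it was 0.07, beside -0.0058. The fold change was above 0 at 26 of the 41 (49.7% of all tested loci) and below 0 at 15. The log2 fold change was smaller than 0.5 in size at 34 of the 41 (80.4% of all). The libraries hold bulk RNA, so fewer cells of a type and less RNA per cell cannot be told apart.

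**Figure D1:**
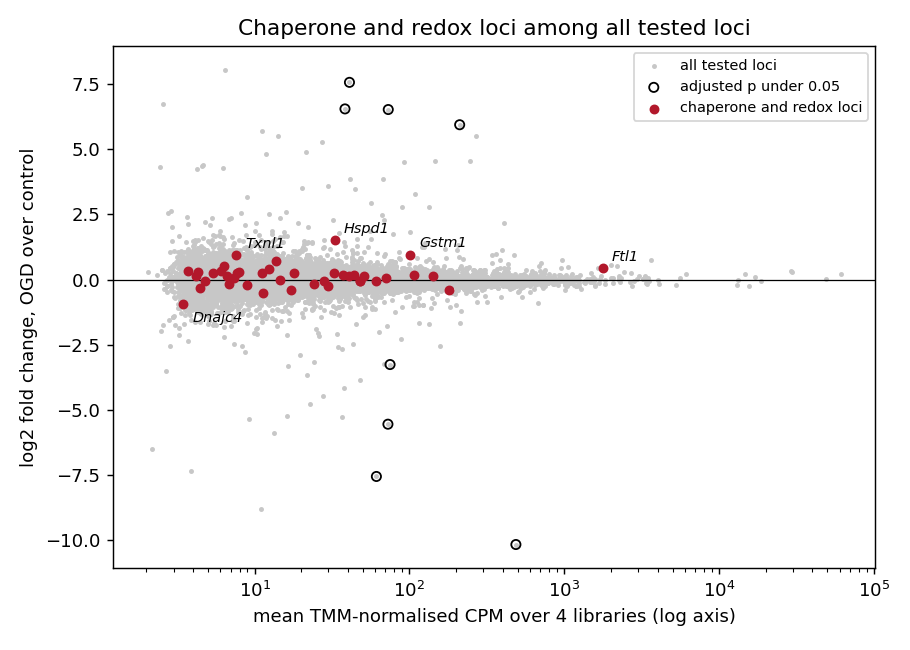
Log2 fold change (OGD over control) against mean TMM-normalised level (CPM, log axis) for 9581 tested loci in grey, the 8 that passed circled in black, and the 41 chaperone and redox loci in red. The red points lie along 0, from Dnajc4 at -0.93 to Hspd1 at 1.52.

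The lack of a call does not show equal levels. An approximate 95% interval of the fold change included 1 at all 41 loci. At 13 of them it also stayed between 0.5 and 2, and at 28 it reached beyond. The groups did not overlap at 10 loci, with 7 higher after OGD (14.0% of all tested loci do so) and 3 lower (14.0%). The highest library lay within 2-fold of the lowest at 26 of the 41 loci, against 65.4% of all tested loci. The other 18 loci had too few counts, with at most 9 in any library, and 1 of them, Dnajc5b, had 0 in all 4.

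**Figure D2:**
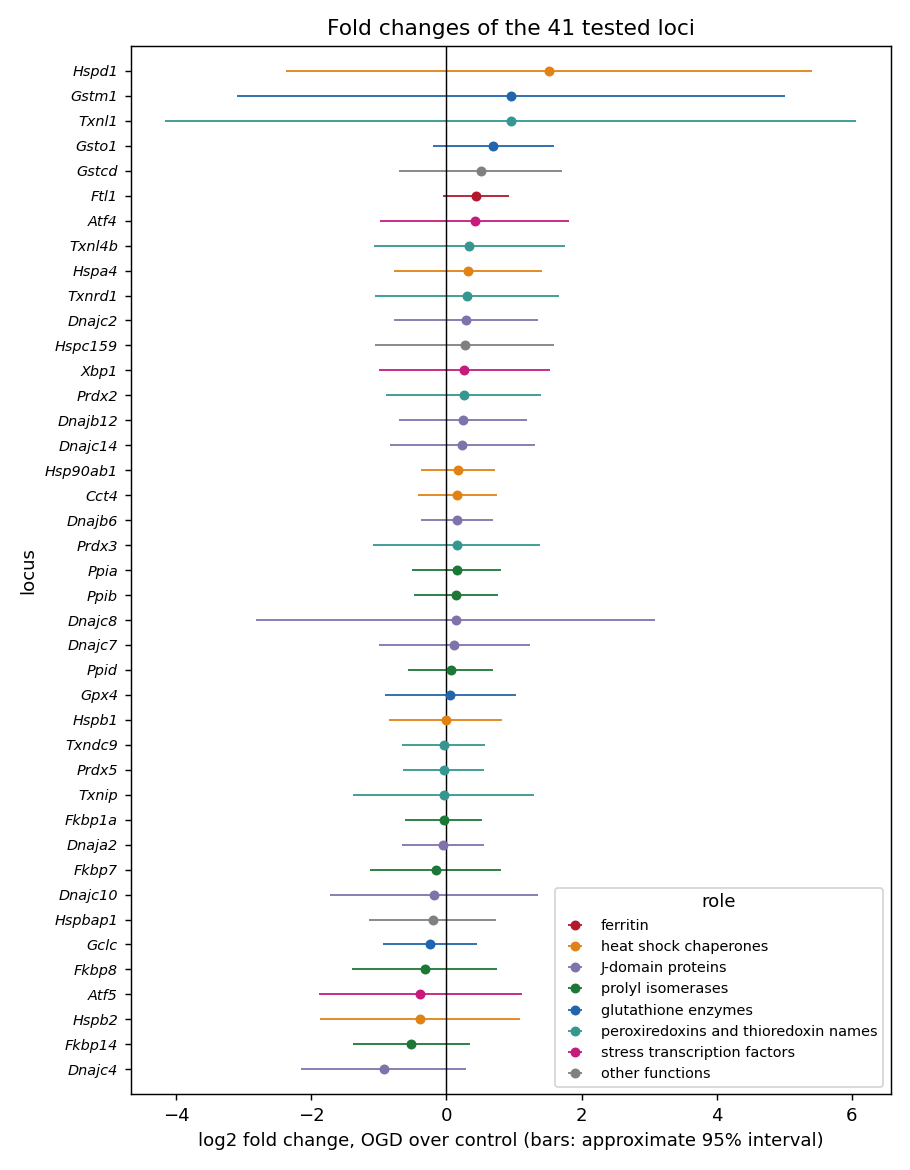
Log2 fold change of each of the 41 tested loci, coloured by role, with approximate 95% intervals as bars. The interval crosses 0 at all 41, is narrow at loci such as Hsp90ab1 and Dnajb6 and spans several units at Hspd1, Gstm1, Txnl1 and Dnajc8.

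Ferritin stores iron in a protein shell, and its light chain supports the iron core. Ftl1 (chromosome 1, 101449124 to 101450028, an unspliced transcript of 905 bases) had 3779 and 4061 counts in control replicates 1 and 2, against 4980 and 5247 in OGD replicates 1 and 2. Both OGD libraries lay above both controls. The mean level was 1497 ± 172 CPM (SD, n = 2) in the controls, beside 2032 ± 220 CPM (SD, n = 2) after OGD. CPM are counts scaled to the TMM-normalised library size over the tested loci. The fold change was 1.36, with an approximate 95% interval of 0.965 to 1.91 (log2 fold change 0.44, SE 0.19, edgeR adjusted p = 1.00). The interval from counting error alone was 1.32 to 1.40. The direction of Ftl1 was the same under every alternative run, and its log2 fold change lay between 0.33 and 0.57 when 1 library was left out.

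Ftl1 also dominates the family. It held 54.4% to 63.4% of the counts of all 59 loci in the 4 libraries. All 59 loci together took 0.264% and 0.283% of the control lncRNA counts, and 0.330% and 0.329% of those after OGD. Without Ftl1, the control shares were 0.119% and 0.129%, beside 0.142% and 0.121% after OGD, and the groups overlapped. In FPKM, which are scaled by transcript length, Ftl1 stood at 167 and 170 in the controls, beside 221 and 232 after OGD. The next locus, Atf5, had at most 42.5 FPKM in any library. Of the 59 loci, 25 had a mean below 1 FPKM. RefSeq lists 15 pseudogenes that carry the Ftl1 symbol, and the treatment of reads that match several copies is not stated.

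Among the cytosolic and mitochondrial chaperones, 9 loci were listed, 6 were tested and 0 passed. Hsp90ab1 (chromosome 9, 17821873 to 17822651), the constitutive HSP90 chaperone gene, had 112 and 106 control counts, and 119 and 117 after OGD. The OGD libraries lay just above the controls, at a fold change of 1.13 with an interval of 0.770 to 1.65. RefSeq lists 22 pseudogenes with the Hsp90ab1 symbol, 20 with that of Hspd1 and 9 with that of Dnajb6, and reads from such copies could be among the counts of these 3 loci. Hspb1, the small heat shock protein HSP27 gene, had 39 and 38 control counts, and 45 and 29 after OGD, which overlap. Cct4, a subunit of the cytosolic chaperonin that folds actin and tubulin, had 102 and 84 control counts, and 101 and 98 after OGD. In TMM-normalised CPM its OGD libraries, at 38.0 and 40.9, lay above the controls, at 37.1 and 33.5. Hspa4, of the HSP110 group that exchanges nucleotide on HSP70, had 12 and 16, then 20 and 14 counts. At these 4 loci the highest library was 1.20 to 1.73 times the lowest in CPM.

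Hspb2 (chromosome 8, 55176868 to 55178099), a small heat shock protein gene best known from muscle, had 42 and 60 control counts, and 21 and 53 after OGD. The low library was OGD replicate 1, and the other OGD library lay between the controls in CPM. Its log2 fold change of -0.39 (SE 0.57) turned to 0.19 without OGD replicate 1. Hspd1 (chromosome 9, 61680530 to 61682106), the mitochondrial HSP60 gene, had 0 and 86 control counts, and 134 and 113 after OGD. The OGD libraries were highest, and the controls lay apart, at 0 and 34.3 CPM. The log2 fold change was 1.52 (SE 1.49, edgeR adjusted p = 1.00). Without control replicate 1 it was 0.51, and without control replicate 2, where 0 is the only control value, the fitted value had an adjusted p of 0.0984. Of the genes whose promoter window held a match to the heat shock core, Hspb8, a small heat shock protein gene, had only 2 to 4 counts in each library and was not tested.

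J-domain proteins hand unfolded clients to HSP70 and start its ATP cycle. They were the largest set, with 13 loci, of which 9 were tested and 0 passed. Dnajb6 (chromosome 4, 2737849 to 2749374), whose product holds aggregation-prone proteins in solution, had 307 and 228 control counts, and 304 and 268 after OGD. In CPM the groups touched without overlap, at 101 ± 14.8 and 113 ± 1.96 CPM (SD, n = 2), a fold change of 1.12 with an interval of 0.771 to 1.62. Dnaja2, a general HSP70 partner, had 140 and 119 control counts, and 141 and 100 after OGD, which overlap, at a fold change of 0.964 with an interval of 0.632 to 1.47. Dnajc4 (chromosome 1, 222242898 to 222243743), a less studied J-domain gene, had 13 and 11 control counts, and 7 and 5 after OGD. Its groups did not overlap, and its log2 fold change of -0.93 (SE 0.47, unadjusted p = 0.106 in edgeR) was the lowest of the 41, on few counts. Dnajb12, of the ER membrane, had 27 and 27, then 39 and 23 counts, and Dnajc10, an ER reductase with a J domain, had 26 and 13, then 24 and 9. Dnajc2, a ribosome-bound J-domain gene, had 23 and 15, then 19 and 25, and Dnajc7, a co-chaperone of HSP70 and HSP90, had 10 and 11, then 12 and 10.

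Dnajc8, whose product is found with splicing factors, differed between libraries of the same group. Its 4 rows summed to 135 and 559 control counts, and 704 and 79 after OGD. Transcript i (chromosome 5, 150743102 to 150743730, unspliced) had 2 and 482 control counts, and 606 and 3 after OGD. Control replicate 2 and OGD replicate 1 were high and the other libraries near 0. The other 3 rows of Dnajc8 summed to 133 and 77 control counts, and 98 and 76 after OGD. The log2 fold change of the sum, 0.14 (SE 1.13), was -0.58 without control replicate 1, -2.03 without OGD replicate 1 and 1.61 without control replicate 2.

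Prolyl isomerases speed the turning of proline bonds during folding. The FK506-binding proteins and cyclophilins had 9 loci, of which 7 were tested and 0 passed. Summed over the 9 loci, the level was 249 ± 1.69 CPM (SD, n = 2) in the controls, beside 252 ± 6.57 CPM (SD, n = 2) after OGD. Ppia (cyclophilin A) had 91 and 110 control counts, and 106 and 109 after OGD. Ppib (cyclophilin B, of the ER) had 115 and 137, then 146 and 123 counts, a fold change of 1.10 with an interval of 0.718 to 1.69. Ppid (cyclophilin 40, an HSP90 partner) had 216 and 147, then 203 and 160, a fold change of 1.04 with an interval of 0.674 to 1.61. Fkbp1a, which encodes FKBP12, had 124 and 132 control counts, and 119 and 120 after OGD, at a fold change of 0.971 with an interval of 0.652 to 1.45. Fkbp7, of the ER, had 86 and 49, then 72 and 44. The groups overlapped at these 5 loci. RefSeq lists 15 pseudogenes with the Ppia symbol and 21 with that of Ppid.

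The groups did not overlap at 2 of the 7 tested prolyl isomerase loci, both lower after OGD. Of all tested loci, 14.0% lay lower without overlap and 14.0% higher. Fkbp14 (chromosome 4, 84767196 to 84768252), of the ER and known for collagen folding, had 32 and 38 control counts, and 23 and 24 after OGD. Its log2 fold change was -0.52 (SE 0.33, unadjusted p = 0.185 in edgeR). Fkbp8, of the outer mitochondrial membrane, had 13 and 13 control counts, and 11 and 9 after OGD, a log2 fold change of -0.32 (SE 0.41).

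**Figure D3:**
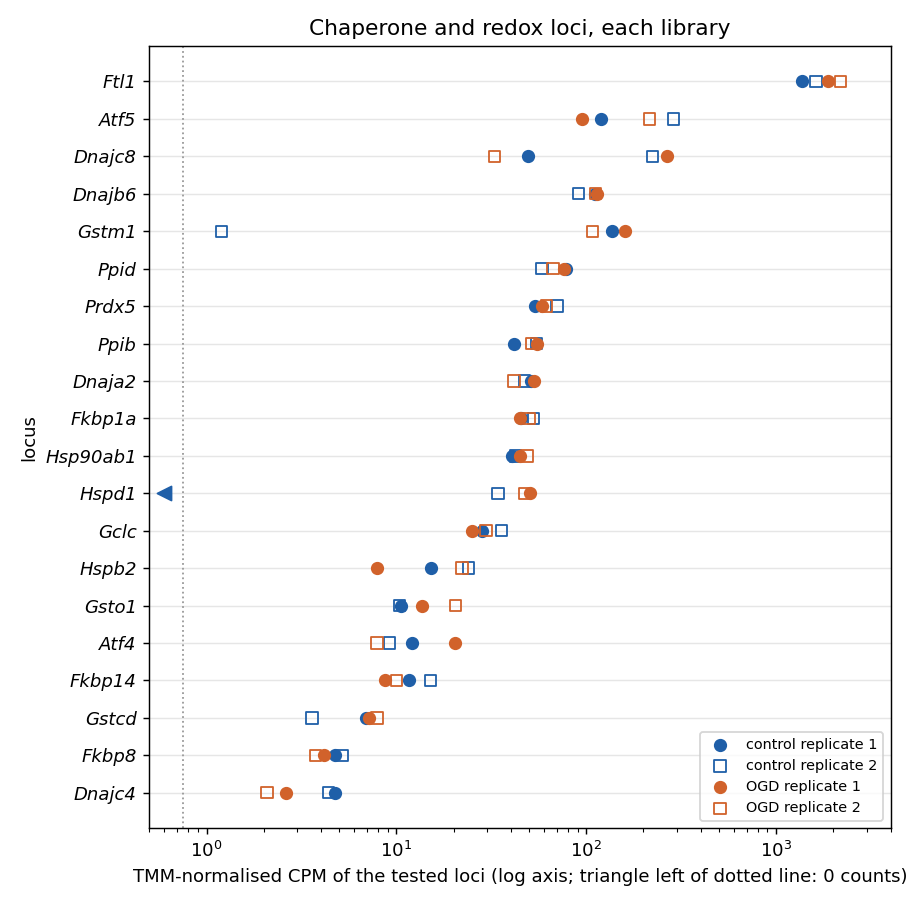
TMM-normalised CPM (log axis) of the 20 loci named with full values, with 1 symbol per library and a triangle for a count of 0. The groups overlap at 11 of the 20 loci, which were chosen in part by smallest p, and at 31 of all 41 tested members. Without overlap, 14.0% of all tested loci lie higher after OGD and 14.0% lower. Ftl1 stands apart at 1375 to 2188 CPM, and single libraries lie far off at Gstm1 and Hspd1.

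Glutathione is made by a ligase whose catalytic subunit is encoded by Gclc, and it is used by the glutathione S-transferases (GST) and peroxidases. These enzymes had 10 loci, of which 4 were tested and 0 passed. Gclc (chromosome 8, 85089558 to 85090311) had 78 and 90 control counts, and 66 and 71 after OGD. The OGD counts were lower, but the groups overlapped in CPM, at 32.1 ± 5.28 and 27.2 ± 3.35 (SD, n = 2). The fold change of Gclc was 0.848 with an interval of 0.524 to 1.37 (log2 fold change -0.24, SE 0.27). Gpx4, the peroxidase that removes lipid hydroperoxides, had 22 and 16 counts in each group. Gsto1 (chromosome 1, 267609880 to 267610552), the omega class transferase, had 29 and 26 control counts, and 36 and 49 after OGD. Both OGD libraries lay higher, at 17.0 ± 4.86 against 10.5 ± 0.138 CPM (SD, n = 2), a fold change of 1.62 with an interval of 0.867 to 3.03 (unadjusted p = 0.103 in edgeR). The log2 fold change of Gsto1 was 0.37 without OGD replicate 2.

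Gstm1, a mu class transferase, had 374 and 3 control counts, and 422 and 258 after OGD. Control replicate 2 was the low library. Nearly all of its counts came from transcript e (chromosome 2, 210803869 to 210805276), with 372, 1, 421 and 256 counts in the same order. The log2 fold change was 0.95 (SE 1.56), and it was -0.02 without control replicate 2 and 6.75 without control replicate 1 (adjusted p = 0.140). The 6 untested transferase loci were Gsta4, Gstk1, Gstm3, Gstm4, Gstt2 and Gstt3, of which Gstm3 reached 9 counts.

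Peroxiredoxins reduce peroxides and are recharged by thioredoxin. Together with loci named for thioredoxin they were 9, of which 8 were tested and 0 passed. The groups overlapped at all 8, and overlap was also the more common outcome over all tested loci. Of those, 14.0% lay higher and 14.0% lower after OGD without overlap. Prdx5 (chromosome 1, 222164462 to 222167408), a peroxiredoxin of mitochondria and peroxisomes, had 148 and 176 control counts, and 156 and 148 after OGD, summed over 4 rows. Its fold change was 0.972 with an interval of 0.642 to 1.47. Prdx3, the mitochondrial peroxiredoxin, had 15 and 18, then 13 and 22 counts, and Prdx2, a cytosolic one, had 15 and 11, then 19 and 11. Txnrd1, the NADPH-dependent reductase of thioredoxin whose window with an antioxidant element match is shown above, had 7 and 13 control counts, and 12 and 12 after OGD. Txnip, an inhibitor of thioredoxin that is known to respond to glucose, had 18 and 8, then 12 and 12.

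Txndc9, whose product modulates chaperonin folding, had 80 and 70 control counts, and 72 and 68 after OGD, and its CPM differed by at most 1.07-fold over the 4 libraries. Txnl1, a thioredoxin-like protein of the proteasome, had 0 and 26 control counts, and 0 and 48 after OGD. Both replicate 1 libraries were at 0. Txnl4b, a thioredoxin-like protein linked to splicing, had 6 and 11, then 12 and 9 counts. Of its overlapping rows, transcript b had 2 and 2 control counts, and 10 and 7 after OGD, and transcript c had 4 and 9, then 2 and 2. How reads shared by such rows were divided is not stated.

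The stress transcription factors were Atf4, Atf5 and Xbp1, of which 3 were tested and 0 passed. Atf5 (chromosome 1, 100808628 to 100811904), linked to the mitochondrial unfolded protein response, had 327 and 721 control counts, and 253 and 516 after OGD. Both replicate 2 libraries were higher than both replicate 1 libraries, and the treatment groups overlapped, at 203 ± 119 and 155 ± 84.7 CPM (SD, n = 2). Its log2 fold change of -0.39 (SE 0.58) turned to 0.39 without control replicate 2 and to 0.09 without OGD replicate 1. Atf4 (chromosome 7, 121480455 to 121481968), the main factor of the integrated stress response, had 33 and 23 control counts, and 54 and 19 after OGD. OGD replicate 1 was highest and OGD replicate 2 lowest. The log2 fold change of 0.42 (SE 0.54) turned to -0.40 without OGD replicate 1 and was 0.94 without OGD replicate 2. Xbp1, whose messenger RNA is spliced when ER stress is sensed, had 112 and 46 control counts, and 72 and 106 after OGD, and the groups overlapped.

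The prefixes also caught 5 genes of other functions, of which 3 were tested and 0 passed. Gstcd, named for a transferase-like domain, had 19 and 9 control counts, and 19 and 19 after OGD, at a log2 fold change of 0.51 (SE 0.46). The value was 0.13 without control replicate 2 and 1.07 without control replicate 1. Hspbap1, a binding partner of HSPB1, had 24 and 26, then 25 and 17. Hspc159, now Lgalsl and a galectin-related gene, had 12 and 24, then 19 and 23. Hspb11, now Ift25 and a gene of ciliary transport, and Atf7ip had too few counts to test.

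Several of these loci had a row close to 0 in some libraries and well counted in others. A row with at least 20 counts in a library and at most 3 in another, a definition chosen after the values were seen, occurred at 5 of the 38 member rows that reached 20 counts, against 7.32% of such rows in the whole table. They belong to Dnajc8, Gstm1, Hspd1, Txnl1 and Dnajc14, whose transcript j had 22 counts in OGD replicate 2 and 0 elsewhere. Transcript i of Dnajc14, which overlaps transcript j, had 53 and 34 control counts, and 66 and 11 after OGD. The Dnajc14 locus summed to 53 and 34, then 66 and 33. How reads shared by these rows were divided is likewise not stated. The low libraries differed from row to row. At 0 of the 5 rows were both libraries of a group low and both of the other well counted. At Hspd1, however, both OGD libraries lay above both controls. Of the 79 rows, 4 overlapped a row of another locus, among them a row of Dnajc8 other than transcript i.

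**Figure D4:**
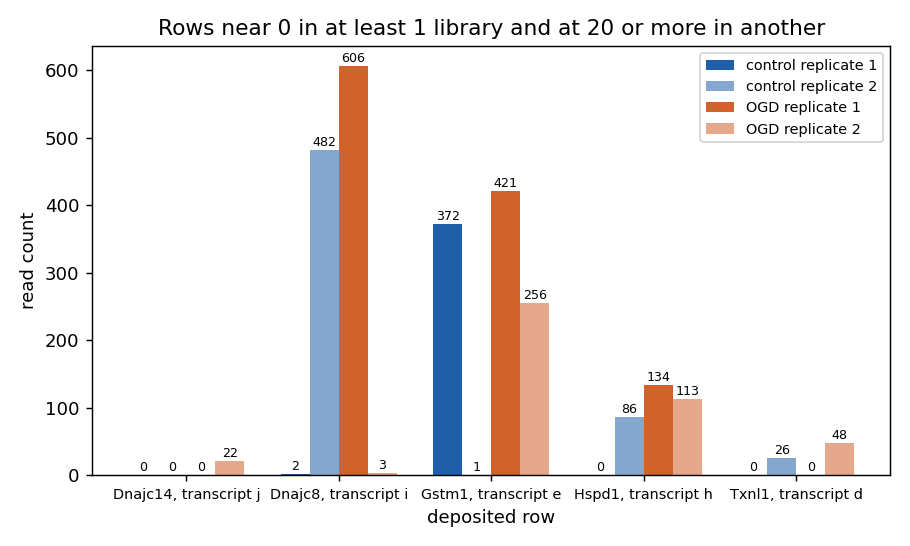
Read counts per library (bars, control in blue, OGD in orange, replicate 2 paler) of the 5 rows with at most 3 counts in 1 library and at least 20 in another. High and near-empty libraries occur in both groups at Dnajc8 and Txnl1.

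What the rows share beyond their names was also compared. Of the 79 rows, which all carry AceView names, 21 (26.6%) were unspliced, against 54.2% of the 16282 AceView rows. The latter include loci without a gene, and rows at other named genes were not compared separately. Their median length was 662 bases, against 642.5 bases.

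The same pathways were then read from genes that the prefixes do not catch, in 4 lists. Over all tested loci, 0.0835% passed and 49.7% had a log2 fold change above 0. Of the heat shock factors and co-chaperones, 8 loci were tested and 0 passed, with 4 above and 4 below a log2 fold change of 0. The best counted was Bag4, an HSP70 cofactor, with 199 and 147 control counts, and 162 and 170 after OGD. Of the unfolded protein and integrated stress response, 10 loci were tested and 0 passed, with 6 above and 4 below 0. The best counted was Edem1, which sorts misfolded glycoproteins for degradation. It had 1601 and 1960 control counts, and 1391 and 1638 after OGD (log2 fold change -0.18). Os9, a lectin of ER-associated degradation named here after its values were seen, had 31 and 14, then 40 and 47 counts, without overlap (log2 fold change 1.03, unadjusted p = 0.0720 in edgeR). Ddit3, the gene of the stress factor CHOP and also picked afterwards, had 301 and 322, then 273 and 432.

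Of the NRF2 and redox genes, 11 loci were tested and 0 passed, with 8 above and 3 below 0. Srxn1, the sulfiredoxin that restores overoxidised peroxiredoxins, had 414 and 877 control counts, and 717 and 1964 after OGD. OGD replicate 2 was highest and OGD replicate 1 lay between the controls, at a log2 fold change of 1.12 (SE 0.66, unadjusted p = 0.154 in edgeR). Nfe2l2, the gene of NRF2 and not the best counted of its list, had 24 and 31, then 30 and 23 counts. Keap1 (25 and 22, then 44 and 27) and Sqstm1 (383 and 364, then 399 and 546), picked afterwards, lay higher after OGD without overlap in CPM. Of all tested loci, 14.0% did so. Of the iron genes, 6 loci were tested and 0 passed, with 4 above and 2 below 0. Ireb2, an iron regulatory protein that controls ferritin translation, had 1380 and 1166 control counts, and 1279 and 1297 after OGD. At an unadjusted p under 0.05 in edgeR the count was 0 in each of these 4 lists, where 2.33% of all tested loci were. With so few tested loci per list, counts of 0 do not set the lists apart from all tested loci.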

How the data were processed

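Counts and FPKM were deposited by the authors in 1 table per library, per the file headers, and the submitters' processing notes list HISAT2 and StringTie. The genome in these notes is mm9, a mouse build, while the identifiers are of rat, so coordinates are given as in the tables, without a build. For the counting step, neither program nor strand setting is given in the sources used here. Library totals implied by FPKM were 24934040 to 26371055. Members and lists were chosen with earlier results of these data known. Counts were summed per gene name and chromosome and tested on the whole table with edgeR 4.0.16 in R 4.3.3 (filterByExpr, TMM, quasi-likelihood F test on group, Benjamini-Hochberg adjustment), after a run on simulated counts. Standard errors are the log2 fold change over the square root of F. Counting intervals are exact binomial and cover counting error only. The text names with full values Ftl1, the 10 tested members with the highest mean CPM and the 6 with the smallest p in each direction, 20 in all. Other tested members have their counts per library. With 2 libraries per group, an exact permutation test cannot go below p = 0.333 and was not used. Alternatives were DESeq2 1.42.0, other scalings and filters, unsummed rows, a term for replicate number, and fits that drop 1 library at a time. Motifs were searched in RefSeq windows with Python.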

Additional observations from a re-analysis of the deposited data

How the results depend on the processing

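The count of members past the adjusted threshold was 0 in all settings run, in either direction, and 0 at an unadjusted p under 0.05 in the fit on group alone. With the replicate number as a block, which the labels do not explain, 0 members passed and 2, Ftl1 (log2 fold change 0.44, unadjusted p = 0.00293, adjusted p = 0.438) and Atf5, had an unadjusted p under 0.05, where 4.60% of all loci did. Ftl1 also did with table totals without TMM and with totals implied by FPKM in edgeR, as did Gstm1 without control replicate 1 and Hspd1 without control replicate 2. Libraries with the same number had deviations whose correlation across loci was 0.300. The members' median log2 fold change lay between 0.0052 and 0.11 with a library left out and between 0.09 and 0.15 otherwise. Of 240 values of the 20 named members under alternatives, 223 kept direction and side, 0 passed and 17 changed sign. Dnajc8 was at -0.13 with the replicate block. With a library left out, Atf5 lay between -1.09 and 0.39, Dnajc8 between -2.03 and 1.61, Gstm1 between -0.0226 and 6.75, Ppid between -0.13 and 0.29, Prdx5 between -0.21 and 0.17, Ppib between -0.0332 and 0.35, Dnaja2 between -0.22 and 0.11, Fkbp1a between -0.14 and 0.0790, Atf4 between -0.40 and 0.94 and Hspb2 between -1.30 and 0.19; the cause was not tested. Of those that kept their sign, Gstcd lay between 0.13 and 1.07, Hspd1 between 0.51 and 9.99, Dnajb6 between 0.0255 and 0.32, Gclc between -0.39 and -0.0530, Gsto1 between 0.37 and 0.98, Hsp90ab1 between 0.11 and 0.25 and Fkbp14 between -0.69 and -0.31. Differences within the approximate 95% intervals were not detectable at this depth and number of libraries. Wide intervals occurred at loci with few counts. They also occurred at better counted loci whose libraries differed within a group, such as Dnajc8 (fold change 0.142 to 8.48), Gstm1 (0.116 to 32.3) and Atf5 (0.269 to 2.17).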
